A study of Mus musculus with 6 samples.

Results

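The SoxB genes are the group of SRY-related transcription factor genes to which Sox2 belongs. Their RNA was examined here together with Sox2ot, the long non-coding RNA gene that contains Sox2. The members were taken by symbol from the mouse annotation: Sox1, Sox2 and Sox3 of the SoxB1 subgroup, Sox14 and Sox21 of the SoxB2 subgroup, and Sox2ot. They are 6 of the 53801 genes counted, and all 6 passed the filter on low counts that left 17514 genes for testing. These genes were selected with their difference between genotypes in these data already known, so for them that difference is described and not tested.

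Bulk RNA-seq was performed by the authors on maxillary prominences dissected from C57BL/6 mouse embryos at E12.5 (the allele was made, and WT mice bought, in the substrain C57BL/6J), with 3 wild-type (WT) samples and 3 Wnt1cre; Rosa26Dlx2/- (Dlx2OE) samples. Dlx2OE embryos carried 1 Rosa26 CAG-LSL-Dlx2-3xFlag allele, in which the CAG promoter drives a tagged Dlx2 once Cre has removed a stop cassette. Cre came from Wnt1cre, which acts in the neural crest lineage, whereas the epithelium that covers the prominence does not arise from neural crest. The labels do not state whether the WT embryos carried Cre or the unrecombined allele, and the number of embryos in each RNA sample is not given. The p-values below measure the spread between the RNA samples of each genotype.

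SOX proteins bind DNA through an HMG box and usually act together with a partner factor, often of the POU family. The SoxB1 proteins SOX1, SOX2 and SOX3 mainly activate transcription and keep neural and sensory progenitors from differentiating, and the SoxB2 proteins SOX14 and SOX21 mainly repress. In the developing head, Sox2 is known from the neural tube, the olfactory, otic and lens placodes, Rathke's pouch, and oral and dental epithelium, where it marks progenitor cells.

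The HMG box is where the coding sequences of the 5 SoxB genes are most alike, and a stretch of it is shown because it is the region in which their reads could be confused. Each line gives 60 bases of coding sequence from the GENCODE M21 transcripts, on the coding strand, and capitals mark the bases that differ from Sox2. The stretches lie at chr3:34650584-34650643 for Sox2, chr8:12396553-12396612 for Sox1, chrX:60892900-60892959 for Sox3, chr9:99875562-99875621 for Sox14 and chr14:118235513-118235572 for Sox21 in the mouse build GRCm38 (mm10), with Sox3, Sox14 and Sox21 on the reverse strand.
Sox2: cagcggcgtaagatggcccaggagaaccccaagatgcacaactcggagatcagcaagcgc
Sox1: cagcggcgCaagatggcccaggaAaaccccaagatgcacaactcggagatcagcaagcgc
Sox3: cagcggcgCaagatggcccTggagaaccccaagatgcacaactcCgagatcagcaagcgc
Sox14: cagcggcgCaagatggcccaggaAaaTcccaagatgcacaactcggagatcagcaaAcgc
Sox21: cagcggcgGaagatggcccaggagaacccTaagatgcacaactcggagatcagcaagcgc
Sox1 and Sox21 matched Sox2 at 58 of these 60 bases, Sox3 at 57 and Sox14 at 56, and 53 bases were the same in all 5 genes. The best ungapped match between any 2 of the coding sequences covered 253 to 378 bases at 81.0% to 88.1% identity. The longest run of identical bases between any 2 of their transcripts was 45 bases, between Sox1 and Sox3, against reads of 150 bases, so a whole read could not match 2 of these genes exactly.

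Sox2 (ENSMUSG00000074637) lies on chromosome 3 from 34650405 to 34652461, forward strand. It has 1 exon of 2057 bp, of which 957 bp are coding, and it lies inside Sox2ot (ENSMUSG00000105265). Sox2ot runs on the same strand from 34104270 to 34682619, a span of 578350 bp with 18 annotated transcripts and 11594 bp of exon, none of which overlaps the exon of Sox2. Sox1 (ENSMUSG00000096014) spans 12395295 to 12400126 on chromosome 8, within the non-coding gene Sox1ot, and Sox3 (ENSMUSG00000045179) spans 60891366 to 60893430 on chromosome X. Sox14 (ENSMUSG00000053747) spans 99874106 to 99876170 on chromosome 9. Sox21 (ENSMUSG00000061517) spans 118233232 to 118237030 on chromosome 14, and 18.8% of its exon bases are shared with Gm4675, an RNA gene on the opposite strand. The library kit does not mark strand, so reads from the shared bases of Sox21 and Gm4675 cannot be told apart. Gm4675 itself held 1 to 18 counts in the 6 samples.

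RefSeq start sites with a promoter window were found for 4 of the 6 members, Sox1, Sox2, Sox14 and Sox21. The windows of Sox2 and Sox14 are printed because these were the 2 members whose genotypes did not overlap. Each is the 250 bases before the RefSeq start in GRCm38.p6, on the strand of the gene, at chr3:34649745-34649994 for Sox2 and at chr9:99876171-99876420, reverse strand, for Sox14. The RefSeq start of Sox2 lies upstream of its GENCODE start at 34650405 given above, so this window does not reach the GENCODE gene. The Sox14 window adjoins its GENCODE gene.
Sox2: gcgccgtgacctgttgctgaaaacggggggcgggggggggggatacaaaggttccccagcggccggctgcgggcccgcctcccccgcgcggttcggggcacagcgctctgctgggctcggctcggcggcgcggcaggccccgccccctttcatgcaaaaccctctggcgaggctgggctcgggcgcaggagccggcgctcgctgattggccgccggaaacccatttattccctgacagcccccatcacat
Sox14: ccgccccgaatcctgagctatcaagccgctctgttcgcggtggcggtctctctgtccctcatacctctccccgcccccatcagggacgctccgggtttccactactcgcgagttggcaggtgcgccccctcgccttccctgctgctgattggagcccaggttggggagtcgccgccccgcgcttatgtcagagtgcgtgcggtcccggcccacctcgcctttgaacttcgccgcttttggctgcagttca
The Sox2 window was 72.0% G and C and the Sox14 window 65.6%, where the median over 32851 windows of the same length was 52.4%. On both strands, 4 short motifs were searched: TAATTA, a core bound by many homeodomain proteins, CTTTGAT, bound by TCF/LEF proteins, ACAATG, bound by SOX proteins, and the E-box CAGCTG. No motif matched in the windows of Sox1, Sox2, Sox14 or Sox21, so no letters are in capitals. Only these exact letters were searched, so sites that differ from them in a base would be missed. Of all windows, 4.84% held TAATTA, 3.21% CTTTGAT, 10.7% ACAATG and 13.0% CAGCTG, and none of these motifs overlaps another in its letters.

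Total counts on genes ranged from 26155500 to 31308813 per sample. Levels are given in CPM, the count of a gene scaled to a common library size with the TMM factors of edgeR, on which 3 counts, taken as the floor, amount to 0.0955 to 0.111 CPM. Dlx2, the overexpressed gene, had 42.9, 35.0 and 45.2 CPM in WT and 119, 131 and 123 CPM in Dlx2OE (log2 fold change 1.60 ± 0.12 (SE), adjusted p = 0.00241). Adjusted p-values are from the quasi-likelihood test of edgeR, and at an adjusted p under 0.05, 2.99% of the genes tested were higher and 3.46% lower in Dlx2OE. Dlx2OE sample 1 stood apart from the other Dlx2OE samples in its makeup. It had 538 CPM of Krt5, a keratin of basal epithelium, against 121 and 147 CPM in the other Dlx2OE samples, and its summed neuron genes were 283 CPM against 908 and 1999. In WT, Krt5 was at 42.7 to 91.7 CPM and the neuron sum at 180 to 495 CPM. By the neuron sum, Dlx2OE sample 1 thus lay within the WT range and the other Dlx2OE samples above it. In Dlx2OE sample 3, 15.4% of the reads overlapped no annotated exon, which includes reads in introns, against 5.34% to 8.21% in the other 5 samples. These are shares of the reads counted on genes, on no exon or as ambiguous.

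Sox2 was lower in Dlx2OE. Its RNA was at 72.8, 118 and 99.8 CPM in WT samples 1 to 3, from 2130, 3566 and 3113 counts. In Dlx2OE samples 1 to 3 it was at 35.5, 25.9 and 30.1 CPM, from 1052, 814 and 814 counts. The genotypes did not overlap, and the lowest WT sample was above every Dlx2OE sample. The mean of the WT samples was 97.0 ± 22.9 CPM and that of the Dlx2OE samples 30.5 ± 4.81 CPM (SD, n = 3 each), a 3.18-fold lower level. On the log2 scale with a prior count of 2 the difference was -1.65 ± 0.24 (SE over samples). It stayed between -1.85 and -1.50 when each sample in turn was left out. In bulk RNA, fewer Sox2-expressing cells and less Sox2 RNA per cell cannot be told apart.

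Among the 6 members, Sox2 was the only one lower without overlap and Sox14 the only one higher without overlap. Over all genes tested, the genotypes did not overlap for 17.3% in the lower direction and for 16.7% in the higher direction. The members were chosen on this contrast, so nothing is read from these counts.

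**Figure D1:**
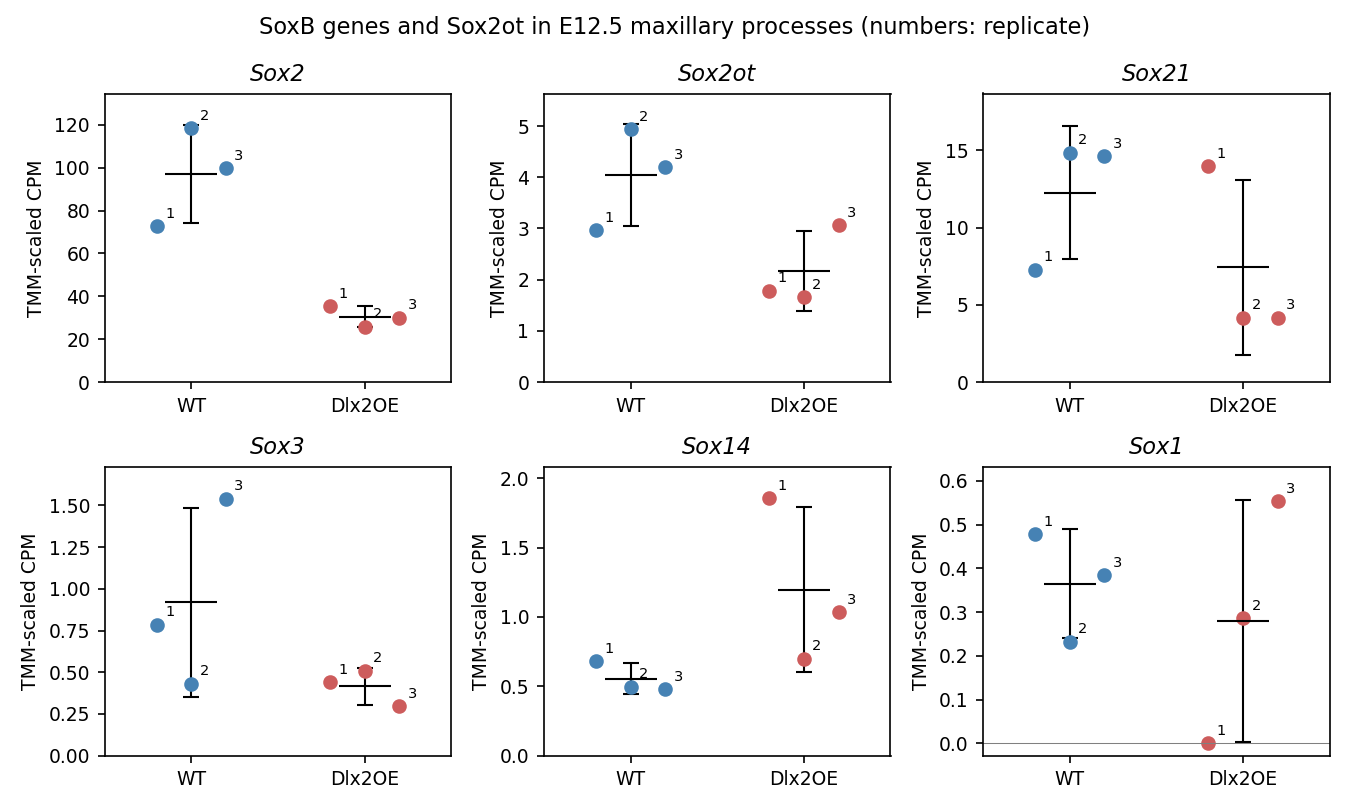
Level of each SoxB gene and of Sox2ot in TMM-scaled CPM on the vertical axis of each panel, with 1 numbered point per sample, WT in blue and Dlx2OE in red, and bars for the mean and SD of 3 samples. The Sox2 points of Dlx2OE sit between 25.9 and 35.5 CPM, below the WT points at 72.8 to 118 CPM, and the Sox14 points of Dlx2OE sit above those of WT, whereas the other 4 panels overlap.

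Sox2ot is transcribed through the Sox2 locus and is known mainly from neural tissue and cells with high Sox2. It held 2.97, 4.94 and 4.20 CPM in WT and 1.79, 1.66 and 3.07 CPM in Dlx2OE. Dlx2OE sample 3 was above WT sample 1, so the genotypes overlapped. The means were 4.04 ± 0.996 and 2.17 ± 0.778 CPM (SD, n = 3 each), and the log2 difference was -0.90 ± 0.34 (SE). Over the 6 samples the log2 levels of Sox2 and Sox2ot had a Pearson r of 0.857, as a description over samples that include both genotypes.

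The ratio of Sox2 to Sox2ot was compared per length of exon, since Sox2ot has more exon bases. Sox2 was 138, 135 and 134 times Sox2ot in the WT samples. In Dlx2OE samples 1 to 3 the ratio was 112, 88.2 and 55.3. The WT ratios were close together, and every Dlx2OE ratio was below them. Dlx2OE sample 3, which had the lowest ratio, was also the library with 15.4% of its reads on no annotated exon. Whether this bears on the Sox2ot count was not tested. Unspliced reads from the introns of Sox2ot would not count for it, and 2 provisional genes within its span, Gm42692 and Gm42693, had 2 to 9 and 2 to 18 counts per sample.

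Sox3 and Sox1, the other SoxB1 genes, were close to the limit of detection. Sox3, which is X-linked and known from the neural tube and the pituitary primordium, had 0.786, 0.431 and 1.54 CPM in WT and 0.439, 0.510 and 0.295 CPM in Dlx2OE. These values rest on 8 to 48 counts per sample. WT sample 2 lay below 2 of the Dlx2OE samples, and WT sample 3 was above all others. The means were 0.919 ± 0.566 and 0.415 ± 0.109 CPM (SD, n = 3 each), with a log2 difference of -0.90 ± 0.53 (SE). Without WT sample 3 the difference was -0.47, so it rests largely on that sample. Xist, the RNA of the inactive X chromosome, had 307 counts in WT sample 2 and 33375 to 68121 in the other 5 samples, and WT sample 2 was also the lowest WT sample for Sox3. The part of this difference in the Sox3 values was not tested.

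Sox1, an early marker of the neural plate, held 0.478, 0.232 and 0.385 CPM in WT and 0, 0.287 and 0.554 CPM in Dlx2OE. These were 7 to 14 counts in WT and 0, 9 and 15 counts in Dlx2OE. A count of 0 in Dlx2OE sample 1 allows up to 0.101 CPM. The genotypes overlapped, with the highest and the lowest sample both in Dlx2OE. Sox1ot, in which Sox1 lies, had 37, 27 and 34 counts in WT and 2, 43 and 28 counts in Dlx2OE, so Dlx2OE sample 1 was the lowest for this gene as well. The log2 difference of Sox1 was -0.77 ± 1.00 (SE), and it became 0.15 without Dlx2OE sample 1. No difference in Sox1 was detectable at this depth.

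Of the SoxB2 repressors, Sox21 was the more abundant and Sox14 was near the limit of detection. Sox21 is known from neural progenitors and from oral and dental epithelium. It had 7.28, 14.8 and 14.6 CPM in WT and 14.0, 4.17 and 4.17 CPM in Dlx2OE. Dlx2OE sample 1 lay among the higher WT samples, and WT sample 1 lay between the Dlx2OE samples, so the genotypes overlapped. The means were 12.2 ± 4.30 and 7.44 ± 5.66 CPM (SD, n = 3 each), and the log2 difference was -0.89 ± 0.67 (SE). Without Dlx2OE sample 1 the difference was -1.48.

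Sox14, known from subsets of neurons in the diencephalon, hindbrain and spinal cord, had 0.683, 0.498 and 0.481 CPM in WT. In Dlx2OE it had 1.86, 0.701 and 1.03 CPM. Every Dlx2OE sample was above every WT sample, but Dlx2OE sample 2 exceeded WT sample 1 only by 22 counts against 20. The means were 0.554 ± 0.112 and 1.20 ± 0.595 CPM (SD, n = 3 each), a 2.16-fold higher level. The log2 difference was 0.94 ± 0.41 (SE), and it was 0.57 without Dlx2OE sample 1, the sample with the most Sox14.

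Levels of different members were compared as CPM per kb of exon. In WT, Sox2 stood at 47.1 ± 11.1 CPM per kb and Sox21 at 3.22 ± 1.13 (SD, n = 3 each). Sox3 followed with 0.445 ± 0.274, Sox2ot with 0.348 ± 0.0859, Sox14 with 0.268 ± 0.0544 and Sox1 with 0.0756 ± 0.0257 CPM per kb. Sox2 and Sox21 differed from their neighbors in this order in every sample, whereas the WT ranges of Sox3, Sox2ot and Sox14 overlapped. In Dlx2OE, Sox2 was at 14.8 ± 2.34 and Sox21 at 1.96 ± 1.49 CPM per kb, with Sox14 at 0.580 ± 0.288 next, ahead of Sox3 at 0.201 ± 0.0528, Sox2ot at 0.187 ± 0.0671 and Sox1 at 0.0580 ± 0.0573. The Dlx2OE ranges of Sox3 and Sox2ot overlapped and lay below that of Sox14.

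Sox2 therefore made up most of the summed level of the 6 members per kb. Its share was 92.2%, 92.3% and 90.2% in the WT samples and 77.7%, 87.0% and 87.3% in the Dlx2OE samples. The share of Sox21 was 4.99% to 7.15% in WT. It was 16.6% in Dlx2OE sample 1 and 7.58% and 6.56% in the other Dlx2OE samples. The ratio of Sox2 to Sox21 per kb was 18.5, 14.7 and 12.6 in WT and 4.69, 11.5 and 13.3 in Dlx2OE, so only Dlx2OE sample 1 lay far from the WT range, and Dlx2OE sample 3 lay within it.

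**Figure D2:**
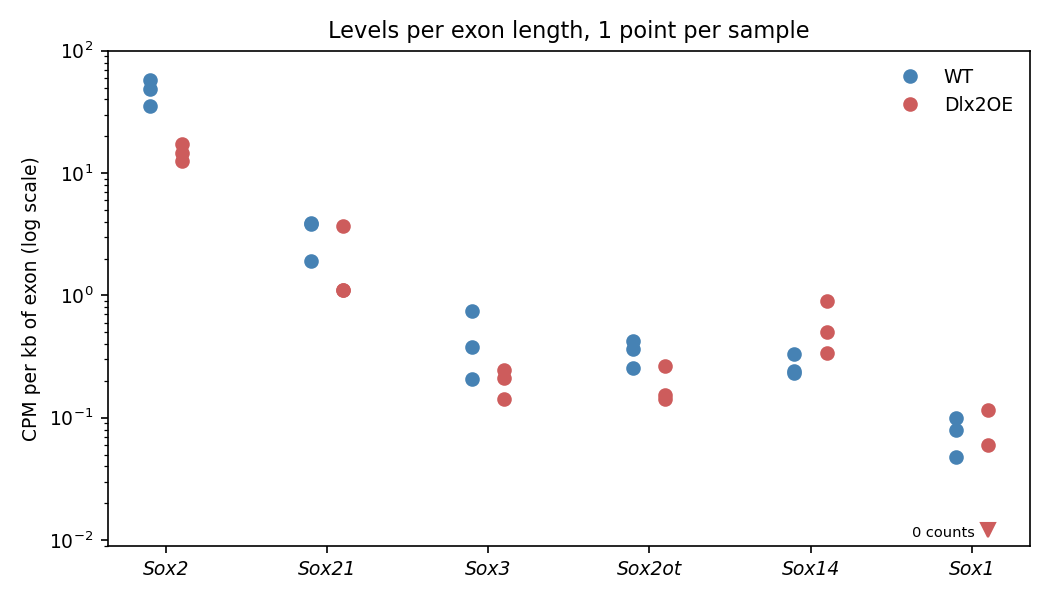
CPM per kb of exon on a log axis for each SoxB gene and Sox2ot, in WT order, with 1 point per sample, WT in blue and Dlx2OE in red, and a triangle for the sample with 0 counts of Sox1. Sox2 lies above all other members in every sample, and the WT points of Sox3, Sox2ot and Sox14 share a range.

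Sox2 and Sox21 were then set beside 17 genes of oral and facial epithelium, the cell type of the prominence in which both are known. The mean log2 CPM of this list was 5.66, 6.27 and 5.88 in WT and 6.08, 5.03 and 4.93 in Dlx2OE, a difference of -0.59 ± 0.41 (SE). Dlx2OE samples 2 and 3 were below every WT sample, and Dlx2OE sample 1 lay within the WT range. The summed level of the list was 1039 to 1748 CPM in WT and 762 to 2244 CPM in Dlx2OE.

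In Dlx2OE sample 1 the mean within the WT range came from genes that lay on both sides of WT. Krt5, Krt14 and Trp63 of basal epithelium were at 538, 490 and 183 CPM in it, against 42.7 to 91.7, 129 to 254 and 94.9 to 112 CPM in WT, and Krt8, Krt18 and Shh were at 26.3, 27.4 and 8.88 CPM, against 71.4 to 142, 52.8 to 108 and 14.8 to 18.8 CPM.

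Sox2 was low in all 3 Dlx2OE samples, sample 1 included. Relative to the mean of the list, Sox2 was at 0.53, 0.61 and 0.76 on the log2 scale in WT and at -0.93, -0.33 and -0.02 in Dlx2OE. The genotypes did not overlap, and the difference was -1.06 ± 0.28 (SE). Relative to Cdh1, the epithelial cadherin, Sox2 was at 0.780, 0.723 and 0.694 in WT and at 0.225, 0.402 and 0.431 in Dlx2OE. Relative to Trp63, which marks basal epithelium, the ratio was 0.767 to 1.05 in WT and 0.194 to 0.415 in Dlx2OE. The ratio to the epithelial adhesion gene Epcam overlapped between the genotypes, with 0.577 to 0.689 in WT and 0.300, 0.493 and 0.677 in Dlx2OE. Against Krt8, a keratin of simple and outer epithelium, Sox2 was not lower in Dlx2OE, with ratios of 1.02, 0.836 and 1.16 in WT and 1.35, 1.09 and 1.57 in Dlx2OE.

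Like the mean of the epithelium list, Sox21 was high in Dlx2OE sample 1 and low in Dlx2OE samples 2 and 3. Relative to the mean of the list it was at -2.78, -2.38 and -2.0 on the log2 scale in WT and at -2.27, -2.95 and -2.85 in Dlx2OE. These values overlapped, and the difference was -0.30 ± 0.31 (SE), against -0.89 for Sox21 alone.

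**Figure D3:**
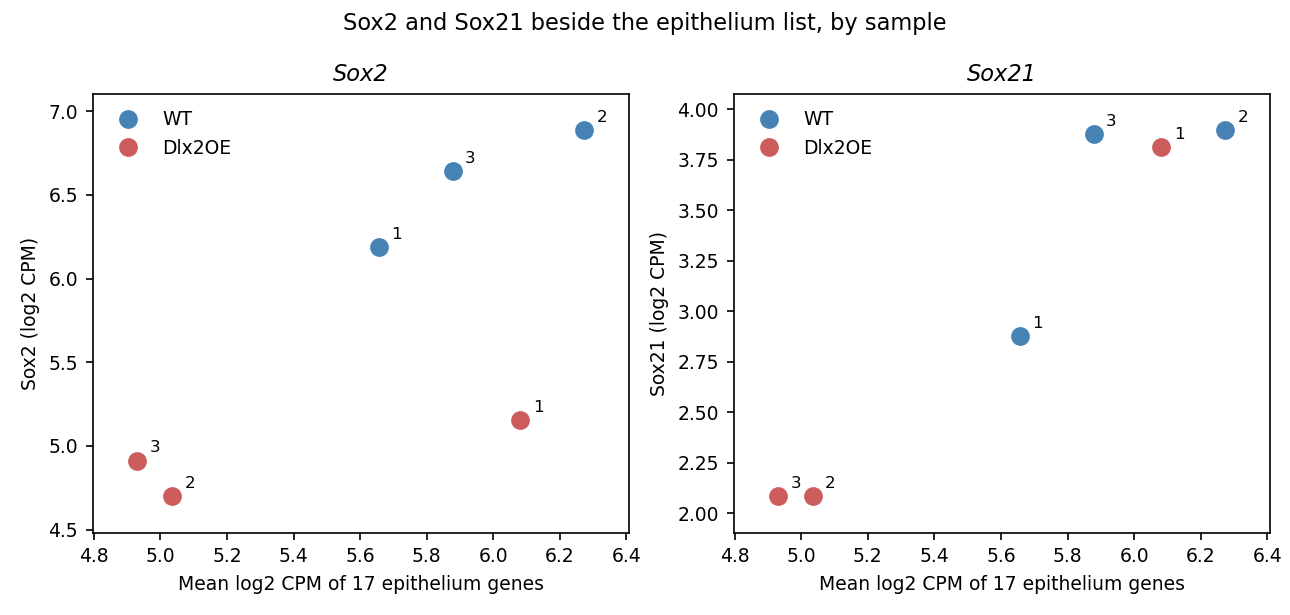
Log2 CPM of Sox2 (left) and Sox21 (right) on the vertical axes against the mean log2 CPM of 17 epithelium genes on the horizontal axes, with 1 numbered point per sample, WT in blue and Dlx2OE in red. Dlx2OE sample 1 lies within the WT range of the list mean, at 6.08, but with low Sox2, whereas its Sox21 lies beside WT samples 2 and 3.

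Of the 17 epithelium genes, 3 were lower in Dlx2OE by the edgeR test and none was higher, where 3.46% of all genes tested were lower and 2.99% higher. Krt8 fell from 71.4, 142 and 85.9 CPM to 26.3, 23.7 and 19.2 CPM (log2 fold change -2.11 ± 0.26 (SE), adjusted p = 0.00939) and had the smallest p of the list. Its keratin partner Krt18 fell by 1.85 ± 0.33 on the log2 scale (adjusted p = 0.0233), and the signalling ligand Shh by 1.31 ± 0.23 (adjusted p = 0.0228). Cdh1 and Trp63 did not pass, with log2 fold changes of -0.46 and 0.13 (adjusted p = 0.412 and 0.806). Without Dlx2OE sample 1, 11 of the 17 genes were lower, where 5.33% of all genes tested in that fit were lower and 5.36% higher, and Trp63 was at -0.40 (adjusted p = 0.0953). Krt18 did not pass without WT sample 2, Dlx2OE sample 2 or Dlx2OE sample 3, nor Shh without these or WT sample 1 (adjusted p = 0.0505 to 0.108), and 1 gene of the list was left in each of these cases except that without WT sample 1, where 2 were.

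Next, 13 of 14 other Sox genes were tested, and Sox11, a SoxC gene of immature mesenchyme and neurons, was the only one to pass. It rose from 392, 397 and 497 CPM to 655, 637 and 730 CPM (log2 fold change 0.65 ± 0.14 (SE), adjusted p = 0.0372), the direction opposite to that of Sox2. The call was lost without WT sample 1 or 2 or Dlx2OE sample 2 or 3 (adjusted p = 0.111 to 0.150), and without WT sample 3 Sox12 passed as well (adjusted p = 0.0411). Sox9, of cartilage and neural crest, was at 83.4 ± 20.2 and 54.1 ± 17.4 CPM (SD, n = 3 each; adjusted p = 0.139) and passed with DESeq2 and with no filter (adjusted p = 0.0478 and 0.0483). Sox10, of neural crest glia, was at 27.1 to 36.3 CPM in WT and 11.5 to 63.5 CPM in Dlx2OE (adjusted p = 0.816).

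SOX2 acts with POU and other factors, and of 13 such partner genes, 11 were tested and 3 passed, all higher and all of the class III POU group. Over all genes tested, 2.99% were higher. Pou3f3 rose from 50.3, 41.7 and 46.2 CPM to 117, 174 and 191 CPM (log2 fold change 1.80 ± 0.19 (SE), adjusted p = 0.00552). Pou3f4 rose by 2.39 ± 0.33 (adjusted p = 0.0123) and Pou3f1 by 3.09 ± 0.40 (adjusted p = 0.0116) on the log2 scale, from means of 1.20 and 0.639 CPM in WT. Otx2, a head and placode factor, had 3.42, 30.7 and 17.9 CPM in WT and 3.92, 0.732 and 1.07 CPM in Dlx2OE (adjusted p = 0.0628), and Pou5f1, the partner of SOX2 in pluripotent cells, had 0 counts in all 6 samples. Pou3f1 did not pass without WT sample 1 or 2 (adjusted p = 0.0508 to 0.0717). Without Dlx2OE sample 1 there were 5 partner genes called, 4 of them higher, where 5.36% of all genes in that fit were higher and 5.33% lower. DESeq2 called 5 as well, 4 of them higher, where it called 5.46% of its genes higher and 7.11% lower.

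Of 7 genes with enhancers known to respond to SOX2, 5 were tested and none passed in edgeR, with 3 at an unadjusted p under 0.05, as were 29.5% of all genes tested, and 2 called by DESeq2, which called 12.6% of its genes, 5.46% higher and 7.11% lower. Their median log2 fold change was -0.50, against 0.00 over all genes tested. Nes, an intermediate filament gene of neural progenitors with a SoxB1-dependent enhancer, had 110, 101 and 101 CPM in WT and 127, 134 and 165 CPM in Dlx2OE (adjusted p = 0.0625). The other 2 with an unadjusted p under 0.05 had lower values in Dlx2OE, the matrix protein gene Spp1 with 6.70, 6.74 and 7.79 CPM in WT and 0.776, 4.14 and 4.21 CPM in Dlx2OE (adjusted p = 0.166) and the pluripotency gene Nanog with 0.604 ± 0.168 and 0.287 ± 0.0747 CPM (SD, n = 3 each; adjusted p = 0.127). The calls of DESeq2 were Nes, higher, and Spp1, lower. Nes was the 1 gene of this list that passed without Dlx2OE sample 1 (adjusted p = 0.0460).

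**Figure D4:**
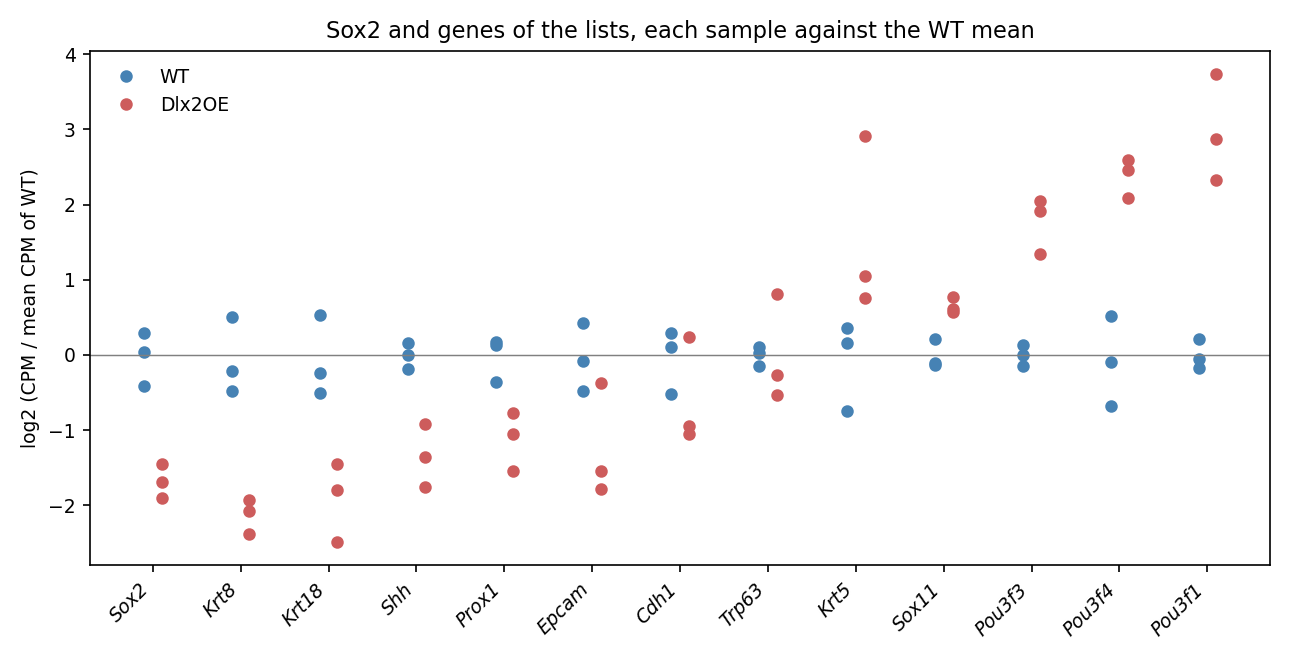
Log2 ratio of the CPM of each sample to the mean CPM of WT, on the vertical axis, for Sox2 and 12 genes of the lists, with 1 point per sample, WT in blue and Dlx2OE in red. The Dlx2OE points of Sox2 lie in the range of those of Krt18, those of Cdh1 and Trp63 lie on both sides of 0, and those of Pou3f3, Pou3f4 and Pou3f1 lie above the WT points.

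The lists of cell types in which Sox2 is otherwise known gave few calls. Among 19 neural progenitor genes and 11 olfactory placode genes tested, Emx2, a homeobox gene held by both lists, rose by 1.61 ± 0.28 on the log2 scale (SE, adjusted p = 0.0218). It had 7.48, 10.8 and 11.2 CPM in WT and 43.0, 22.1 and 24.9 CPM in Dlx2OE. Emx2 did not pass without WT sample 1 or 2 (adjusted p = 0.0799 to 0.0965), and without Dlx2OE sample 1 there were 12 progenitor genes (6 higher and 6 lower) and 5 placode genes (2 higher and 3 lower) called, where 10.7% of all genes in that fit were. Without WT sample 2 edgeR called no gene of either list. The lens and retina list gave 1 lower gene of 6 tested, Prox1, at -1.09 ± 0.24 (adjusted p = 0.0400), which did not pass in the fits that left out 1 of 5 samples (adjusted p = 0.0537 to 0.155), with Dlx2OE sample 1 as the exception, nor with library size alone (adjusted p = 0.0530). The pituitary list gave none of 5 in edgeR, with 1 at an unadjusted p under 0.05 and 1 in DESeq2, and 2 called without Dlx2OE sample 1. The summed level of the lens and retina list was 27.6 to 36.4 CPM in WT and 17.2 to 20.3 CPM in Dlx2OE, without overlap. Prox1 and Cryab made up most of this sum, with means of 17.2 and 9.39 CPM in WT and 8.10 and 4.51 CPM in Dlx2OE. Mitf and Tyr had higher means in Dlx2OE (4.18 and 0.791 CPM, against 3.05 and 0.111 CPM in WT). The other genes of the list had means of at most 1.16 CPM in either genotype, with differences in both directions. The sums of the placode list (412 to 569 and 391 to 575 CPM) and the pituitary list (131 to 173 and 84.1 to 142 CPM) overlapped. The part of these tissues in the Sox2 values was not tested.

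None of 15 neuron genes and none of 11 Schwann precursor and glia genes passed in edgeR, with 5 and 2 at an unadjusted p under 0.05 and 2 and 1 called by DESeq2, against 29.5% and 12.6% of all genes. The summed neuron level was 180 to 495 CPM in WT and 283 to 1999 CPM in Dlx2OE. Without Dlx2OE sample 1 there were 9 neuron and 3 glia genes called, all higher, where 5.36% of all genes in that fit were higher. Without WT sample 3 there was 1 glia gene called, lower. The neuron sum was 180, 495 and 314 CPM in WT samples 1 to 3, the order of Sox2 in these samples, and 283, 908 and 1999 CPM in Dlx2OE samples 1 to 3, where Sox2 was at 35.5, 25.9 and 30.1 CPM. The forebrain and placode genes Lhx2 and Six3 had the order of Sox2 in WT as well, with 0.923, 43.1 and 25.6 CPM and 6.29, 23.9 and 13.4 CPM, and the part of neural tissue in the Sox2 values was not tested. Of 15 neural crest mesenchyme genes, Twist2, Alx4 and Twist1 rose, by 1.69, 1.39 and 0.65 on the log2 scale (adjusted p = 0.0152, 0.0211 and 0.0402), and all 3 lost the call without WT sample 1 or WT sample 2 (adjusted p = 0.0530 to 0.156 over these fits), as did Alx4 and Twist1 without Dlx2OE sample 2 and Twist1 also without Dlx2OE sample 1 or 3. The summed mesenchyme level was 4762 to 5210 CPM in WT and 5418 to 5603 CPM in Dlx2OE. The median log2 fold change was 1.65 for the neuron list, 0.31 for the partners, 0.18 for glia, 0.16 for mesenchyme, 0.07 for progenitors, 0.06 for the other Sox genes, -0.30 for lens and retina, -0.46 for epithelium, -0.49 for pituitary and -0.50 for the placode list. Over all lists, 13 of 114 genes tested passed, 11.4% against 6.45% of all genes tested, and 43 had an unadjusted p under 0.05, against 29.5% of all genes tested. The lists were written with earlier results of these data known, so nothing is read from a share above that of all genes.

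The genes next to the members on the chromosome were also read. Of 20 protein-coding neighbors, the nearest 2 on each side of each member, 14 were tested, 2 were lower and 1 was higher. Over all genes tested, 3.46% were lower and 2.99% higher. At an unadjusted p under 0.05 there were 5 neighbors, against 29.5% of all genes tested. Dnajc19, the nearest gene upstream of Sox2ot and 569083 bp from Sox2, fell from 47.9 ± 9.90 to 29.6 ± 2.30 CPM (SD, n = 3 each; log2 fold change -0.69 ± 0.16 (SE), adjusted p = 0.0456). Fxr1, the next gene on that side, was at -0.28 (adjusted p = 0.224). Atp11b and Dcun1d1, on the other side of Sox2, were at 0.05 and -0.09 (adjusted p = 0.750 and 0.619). Ldoc1, 816066 bp from Sox3, was lower by -1.27 ± 0.29 (adjusted p = 0.0434), and Dzip1l, 204849 bp from Sox14, was higher by 0.49 ± 0.12 (adjusted p = 0.0479). Dnajc19 did not pass without WT sample 1 or 2 or Dlx2OE sample 2 or 3 (adjusted p = 0.129 to 0.172), Dzip1l passed only without WT sample 3 and Ldoc1 in no fit with a sample left out (adjusted p = 0.0595 to 0.160 where these 2 did not pass). The Dzip1l call was also lost with RLE factors (adjusted p = 0.0506), and that of Ldoc1 with DESeq2, no filter and library size alone (adjusted p = 0.116, 0.0671 and 0.0554).

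The genes most like Sox2 over the 6 samples were ranked by Pearson r of log2 CPM, as a description of samples that share the 2 genotypes. The ranking held the 13225 tested genes with a mean log2 CPM of at least 1. The 10 highest were Lpcat3, Prr15, Dmrt2, Gsn, Tmem252, Ifitm2, Tspan12, Jph1, Clta and Kdelr1, with r from 0.989 to 0.996. The DM-domain transcription factor gene Dmrt2 and Prr15 had the largest folds between the genotypes among them. Dmrt2 had 48.3, 84.0 and 62.3 CPM in WT and 19.8, 14.4 and 14.0 CPM in Dlx2OE. Prr15 had 5.09 ± 2.16 CPM and 0.899 ± 0.228 CPM in the same order (SD, n = 3 each). Sox1, Sox3 and Sox14 were below the level set for the ranking and could not enter it. Sox2ot and Sox21 were ranked and were not among these 10 genes. The r with Sox2 was 0.723 for Sox21, 0.561 for Sox3, 0.193 for Sox1 and -0.676 for Sox14. The genes most like Sox21, a ranking chosen after its values were seen, included Fzd6, Dsc2 and Cdh1 with r of 0.995, 0.994 and 0.992. Cdh1 and the desmosomal cadherin gene Dsc2 are epithelial adhesion genes, and Dsc2 had 20.8, 44.6 and 37.5 CPM in WT and 40.9, 13.5 and 13.6 CPM in Dlx2OE, with Dlx2OE sample 1 at the WT level as for Sox21.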

How the data were processed

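RNA of maxillary prominences at E12.5 was sequenced in 3 WT and 3 Dlx2OE samples. The authors selected mRNA on poly-T beads, sequenced 150-base paired reads, mapped them to mm10 with STAR 2.7.3a, and deposited each gene's raw count, made by htseq-count 0.12.4 in union mode. The annotation release and strand setting are not given in the sources used here. The paper gives 6 littermates and the labels 7. In union mode a read on exons of 2 genes counts for neither, which bears on Sox21 and Gm4675.

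Symbols and positions were taken from GENCODE M21 (GRCm38), which lacked 181 of the 53801 identifiers. Promoter windows were from RefSeq. Counts were tested in R 4.3.3 with edgeR 4.0.16: filterByExpr with a minimum count of 10, TMM scaling, quasi-likelihood F test on genotype, and Benjamini-Hochberg adjustment over 17514 genes. Genes were called at an adjusted p under 0.05. SEs of fitted values were derived from F. Log2 levels used a prior count of 2. The members, and the lists written by hand, were chosen with earlier results of these data known. Named genes were the members, called list genes and up to 4 others per list by p, neighbors, Dlx2, and the 10 genes most like Sox2. A gene selected by this rule is not reported here. Script output was tested on simulated data. Alternatives were DESeq2 1.42.0, other scalings and filters, a fold threshold, a replicate block, and leaving out each sample. The 3-count floor covers counting error only. Figures used matplotlib 3.10.9.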

Additional observations from a re-analysis of the deposited data

How the results depend on the processing

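The log2 difference of Sox2 moved by less than the spread between replicates under every alternative run, that of Sox1 was -2.01 with a smaller prior count, and the other members moved by less than their spread. Over all genes, 1130 were called. The count was 2417 with DESeq2, 2044 with no filter on low counts, 546 with the added fold threshold of a log2 change of 1, and 79 (without WT sample 2) to 2091 (without WT sample 3) with 1 sample left out. The 13 calls among the listed genes became 30 with DESeq2, 33 with no filter, and 3 to 46 with 1 sample left out, and the 3 among neighbors became 1 with the fold threshold and 0 to 2 with 1 sample left out. The causes were not tested. Of the 13 listed calls, Krt8, Pou3f3 and Pou3f4 remained in all 6 fits without a sample, and all 13 in DESeq2. Trp63, not called, ranged from -0.40 (without Dlx2OE sample 1) to 0.37 with 1 sample left out.

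With the replicate number as a block, 961 genes were called, 11 of the 13 listed genes and 1 neighbor. Prox1, Twist1, Dzip1l and Ldoc1 lost their calls (adjusted p = 0.0582, 0.0620, 0.0577 and 0.0932), and Sox9 passed (adjusted p = 0.0423). The numbers did not pair the samples: the deviations of same-numbered samples from their genotype means correlated at -0.0718, -0.211 and 0.0731. Scaling by library size alone moved the median of all genes by 0.07 and gave 570 higher and 493 lower genes. Depth limits Sox1, Sox3 and Sox14, at 0 to 55 counts per sample.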
